A study of Homo sapiens with 8 samples.

Results

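The guanylate-binding proteins (GBPs) are large GTPases that interferons induce, and 5 of them are described here in a uveal melanoma (UM) cell line: GBP1, GBP2, GBP3, GBP4 and GBP5. They are 5 of the 35238 gene symbols in the deposited count table, and they were picked because GBP1 and GBP3 were far lower with mivebresib than in the control. The comparison of mivebresib with the control is therefore given below as a description of these genes, with no test. The cells were MP38, a UM line with mutated BAP1, cultured in wells of six-well plates and exposed for 24 h to DMSO alone (control), romidepsin at 40 nM, quisinostat at 40 nM or mivebresib at 1200 nM, with 0.1% DMSO in each group. Romidepsin and quisinostat inhibit histone deacetylases (HDACs), and mivebresib blocks the bromodomains with which BET proteins bind acetylated histones. All 4 groups were sequenced as bulk RNA in duplicate, 1 library per well of this single line, so the p-values measure the spread between wells.

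GBPs bind and hydrolyse guanine nucleotides and assemble into coats on the surface of pathogens and on the vacuoles that hold them. GBP1, GBP2 and GBP5 carry a C-terminal motif for the attachment of a prenyl lipid, which anchors them in membranes, whereas GBP3 and GBP4 lack it. Type II interferon (IFN-γ) raises them through the kinases JAK1 and JAK2 and the transcription factor IRF1. Interferon signals reach DNA at gamma-activated sites (GAS) and at the interferon-stimulated response element (ISRE), which IRF factors bind.

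All 5 genes lie on the minus strand of chromosome 1 in a cluster of 266.1 kb (GRCh38, 89006666 to 89272804, GENCODE 29), and the principal transcript of each has 11 exons. In the order of their coordinates, GBP3 (ENSG00000117226) runs from 89006666 to 89022894, GBP1 (ENSG00000117228) from 89052319 to 89065360, GBP2 (ENSG00000162645) from 89106132 to 89150456, GBP4 (ENSG00000162654) from 89181148 to 89198932 and GBP5 (ENSG00000154451) from 89258950 to 89272804. RefSeq promoter windows (GRCh38.p14, 250 bases before to 50 bases after the start) were matched for GBP1, GBP3 and GBP4 of the 5 members. Each of these 3 held 1 ISRE core, searched as GAAANNGAAA on both strands, and so did 1255 of all 35116 windows of the same length (3.57%). The core is shown with 10 bases on either side because it is the binding sequence that the 3 promoters share, written 5′ to 3′ on the strand of the gene, where it reads as the reverse complement of the searched letters and stands in capitals.
GBP1, chr1:89065316-89065345, minus strand: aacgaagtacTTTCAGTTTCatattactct
GBP3, chr1:89022845-89022874, minus strand: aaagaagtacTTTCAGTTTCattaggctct
GBP4, chr1:89198927-89198956, minus strand: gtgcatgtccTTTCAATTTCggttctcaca
Relative to the RefSeq start, with negative numbers upstream, the first base of the core lay at -127 in GBP1, at 2 in GBP3 and at -4 in GBP4. The GBP1 and GBP3 cores lie within a GENCODE exon of these genes, and the GBP4 core does not. A GAS sequence, searched as TTCNNNGAA on both strands, was found at -15 in GBP3 and not in the windows of GBP1 and GBP4, against 2689 of all windows (7.66%). The windows of GBP6 and GBP7, at the same locus, held neither sequence.

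Total counts per library ran from 28483235 to 29359024, and 15085 symbols passed the filter on low counts. The control libraries differed most: a chi-square test of replicate counts gave, per degree of freedom, 58.2 in the control and 9.52 to 9.79 in the drug groups. Levels are given as CPM, the count scaled to library size, after TMM scaling, which centres the bulk of genes near no change. A gene passed the test at a Benjamini-Hochberg adjusted p below 0.05 over all tested genes (edgeR, quasi-likelihood). Without TMM factors the median log2 fold change over all tested genes moved from -0.0036 to 0.20 for quisinostat and from -0.012 to 0.059 for romidepsin. Of 8 melanocytic markers 7 passed the filter, and 4 of them, PMEL, MLANA, MITF and SOX10, had at least 1468 counts in every library. Of 10 leukocyte markers only CD68, which many cell types express, passed the filter, and CD3E and CD3D were at 0 counts in every library. In bulk RNA, expression in fewer cells cannot be told apart from less RNA per cell.

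The members were expressed at low levels in untreated MP38 cells. The 5 genes together had 140 and 149 counts in the control libraries, and all 5 passed the filter. GBP2 and GBP5 passed it only through libraries of the HDAC inhibitors: GBP2 reached 10 counts in no control library and GBP5 in 1. Per kilobase of the principal transcript, GBP3 had the highest level in the control, 1.14 ± 0.0744 CPM per kb (SD, n = 2), followed by GBP1 at 0.195 ± 0.0209. GBP2 (0.130 ± 0.0257), GBP5 (0.126 ± 0.104) and GBP4 (0.0938 ± 0.0146) came next, and the order of these last 3 was within their spread. So was the rank of GBP1 over GBP5, which stood at 0.181 and 0.2 CPM per kb in control replicate 2. GBP6 had at most 3 counts in any library and the pseudogene GBP1P1 at most 2. GBP7 was at 0 in all libraries, and 0 counts allow up to 3 counts per library, or at most 0.11 CPM, where this and all intervals on counts cover counting error only. None of these 3 was tested.

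**Figure D1:**
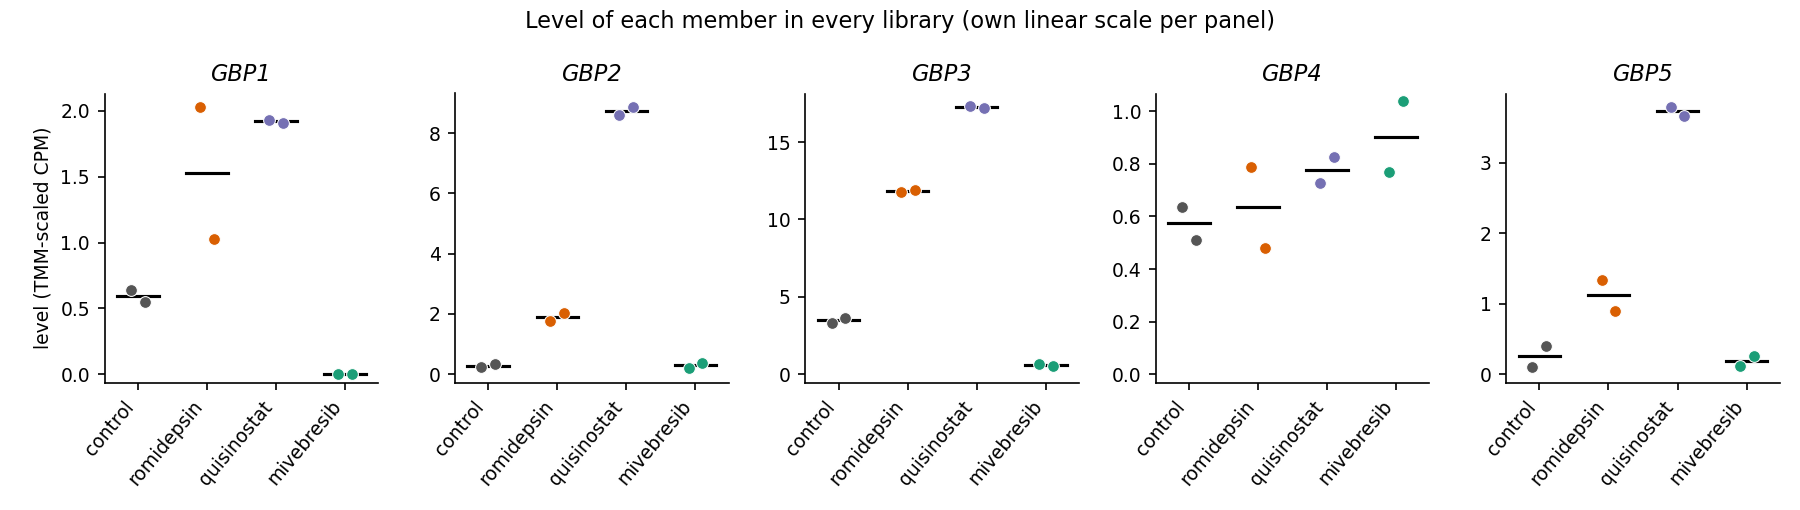
Level of each member in TMM-scaled CPM on a linear axis that differs between panels. Each point is 1 library, each bar the mean of the 2 libraries of a group. The HDAC inhibitor libraries lie above both control libraries for GBP1, GBP2, GBP3 and GBP5, while for GBP4 the romidepsin libraries overlap the control and the quisinostat and mivebresib libraries lie just above it.

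Of the 5 members, 4 rose with romidepsin and the same 4 rose with quisinostat: GBP1, GBP2, GBP3 and GBP5. GBP2 and GBP5 were tested only because the HDAC inhibitor libraries lifted them over the filter on low counts. Their rise against the control, p-values included, is therefore to be read as a description. GBP4 did not pass with either drug, and no member fell. The median log2 fold change of the 5 was 1.77 with romidepsin and 2.30 with quisinostat, beside -0.012 and -0.0036 over all tested genes. Over all tested genes, 15.2% were called higher and 15.8% lower with romidepsin, and 28.0% higher and 25.1% lower with quisinostat. The split of calls depended on the scaling, from 2293 higher and 2377 lower with romidepsin to 2787 and 1700 without TMM factors, and from 4231 and 3793 with quisinostat to 5625 and 2144. With upper-quartile factors it was 2883 and 1665 for romidepsin and 5048 and 2673 for quisinostat. The same number of members passed under each of these scalings and with no filter on low counts, while without romidepsin replicate 1 only 2 passed with romidepsin, GBP2 and GBP3. Both comparisons use the control libraries that also entered the comparison on which the members were picked.

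GBP3, a member without a prenylation motif, had the highest counts of the family. It had 94 and 100 counts in the control, 345 and 346 with romidepsin, 546 and 541 with quisinostat and, under mivebresib, 18 and 15. No 2 of the groups overlapped, and the replicates of each HDAC inhibitor were nearly equal. GBP3 rose from 3.49 ± 0.228 CPM (SD, n = 2) to 11.9 ± 0.0472 with romidepsin, a log2 fold change of 1.77 with a standard error of 0.117 (edgeR adjusted p = 6.27e-05). With quisinostat it rose to 17.3 ± 0.0406 CPM (log2 fold change 2.30, standard error 0.115, edgeR adjusted p = 2.6e-06). With mivebresib it stood at 0.599 ± 0.0841 CPM, 5.83-fold below the control, a log2 fold change of -2.54 with a standard error of 0.175.

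GBP1, the member that starts coat assembly on bacterial surfaces, had 18 and 15 counts in the control, 59 and 30 with romidepsin, 61 and 60 with quisinostat, and 0 in both mivebresib libraries. Every HDAC inhibitor library was above both control libraries, and the romidepsin replicates differed 1.96-fold from each other. GBP1 rose with quisinostat from 0.593 ± 0.0635 CPM (SD, n = 2) to 1.92 ± 0.0145 (log2 fold change 1.69, standard error 0.378, edgeR adjusted p = 0.00708). With romidepsin it rose to 1.53 ± 0.702 CPM (log2 fold change 1.36, standard error 0.389, edgeR adjusted p = 0.0344). That call rested on single libraries: the adjusted p was 0.215 with a log2 fold change of 0.80 without romidepsin replicate 1, between 0.0546 and 0.065 when either control or either quisinostat library was left out, and 0.0742 with only the 4 libraries of the comparison. With mivebresib, a floor of 3 counts per library puts GBP1 at least 5.45-fold lower than the control. GBP1 and GBP3 are the closest pair of the family, with 91.6% identity over the coding sequence. Of the 31-base words of their principal transcripts, 12.9% of those of GBP1 and 10.0% of those of GBP3 occurred in another GBP, and at 150 bases, the read length, none did. With their counts added into a single gene, the sum rose with both HDAC inhibitors and its log2 fold change with mivebresib was -2.76.

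GBP2, a prenylated member, rose with both HDAC inhibitors. It had 7 and 9 counts in the control, 51 and 59 with romidepsin, 272 and 279 with quisinostat, and 6 and 10 with mivebresib. Both quisinostat libraries were far above the romidepsin libraries, which were above all control and mivebresib libraries, and the last 2 groups overlapped. GBP2 rose from 0.288 ± 0.0571 CPM (SD, n = 2) to 1.89 ± 0.198 with romidepsin (log2 fold change 2.70, standard error 0.282, edgeR adjusted p = 0.000344). With quisinostat it rose to 8.75 ± 0.193 CPM (log2 fold change 4.90, standard error 0.241, edgeR adjusted p = 2.57e-06). The 30.3-fold ratio has a 95% counting interval of 18.6 to 53.6, since the control held only 16 counts in all. With mivebresib it stood at 0.290 ± 0.0991 CPM, a ratio of 1.00 to the control with an exact 95% counting interval of 0.472 to 2.15. GBP2 overlaps GBP7 on the same strand, and GBP7 had no counts.

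GBP5, a prenylated member that acts on the Golgi and restricts the cleavage of viral envelope proteins by furin, had 3 and 11 counts in the control, 39 and 26 with romidepsin, 120 and 115 with quisinostat, and 3 and 7 under mivebresib. The HDAC inhibitor libraries did not overlap the control, while the mivebresib libraries did. From 0.254 ± 0.209 CPM in the control (SD, n = 2), GBP5 rose to 1.12 ± 0.314 with romidepsin (log2 fold change 2.13, standard error 0.502, edgeR adjusted p = 0.0138). Quisinostat brought a rise to 3.73 ± 0.0968 CPM (log2 fold change 3.86, standard error 0.437, edgeR adjusted p = 0.000145). The size depended on which control library was used: without control replicate 1 the log2 fold change was 1.49 with romidepsin and 3.20 with quisinostat, and without control replicate 2 it was 3.34 and 5.07. Without romidepsin replicate 1 the romidepsin value was 1.81 and did not pass (edgeR adjusted p = 0.0896). With mivebresib GBP5 stood at 0.181 ± 0.100 CPM, and the ratio to the control of 0.711 had a 95% counting interval of 0.286 to 1.74. Its direction depended on single libraries: the log2 fold change of -0.47 was 0.744 without control replicate 2, -1.13 without control replicate 1 and -1.17 without mivebresib replicate 2.

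GBP4, which lacks a prenylation motif, did not pass in any tested comparison. It had 18 and 14 counts in the control, 23 and 14 with romidepsin, 23 and 26 with quisinostat, and 21 and 29 under mivebresib. The romidepsin libraries overlapped the control, and the quisinostat and mivebresib libraries lay just above it. The log2 fold change was 0.14 with romidepsin (95% interval -0.71 to 1.00, edgeR adjusted p = 0.793) and 0.43 with quisinostat (95% interval -0.38 to 1.25, edgeR adjusted p = 0.335). With mivebresib the log2 fold change was 0.65 with a standard error of 0.356. GBP4 and GBP5 each overlap an annotated antisense gene, and whether the counting used strand is not given in the sources used here.

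**Figure D2:**
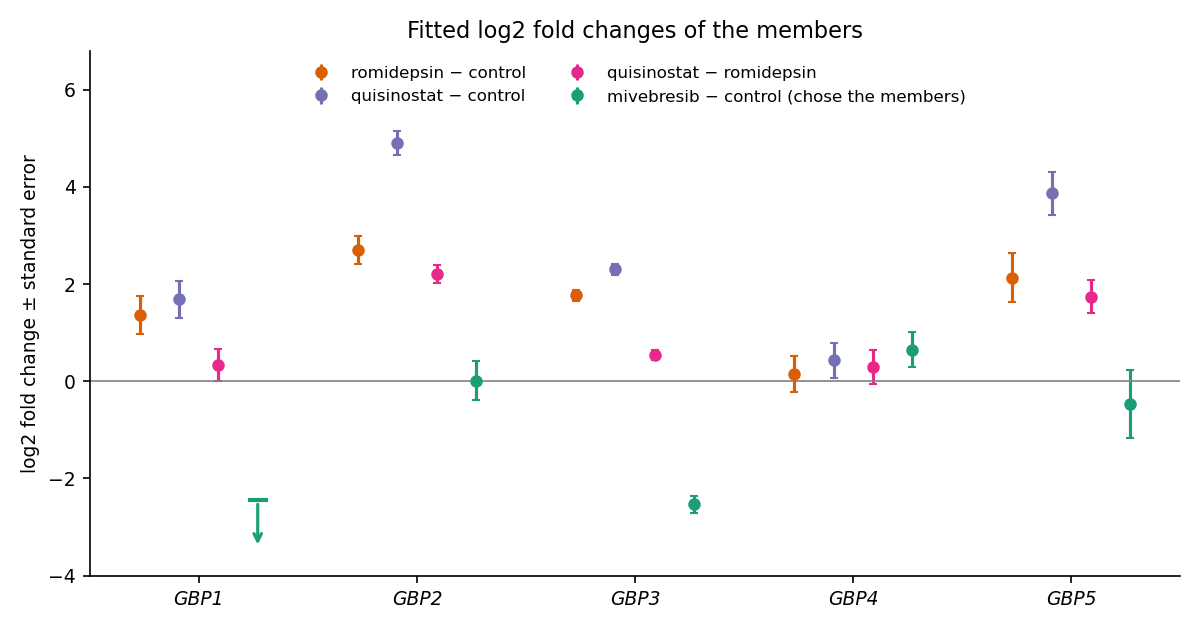
Log2 fold change of each member from the edgeR fit, with bars of 1 standard error. The mivebresib values describe the comparison on which the members were picked, and the short bar with an arrow marks the bound for GBP1, which had no counts with mivebresib. GBP2 and GBP5 reach 4.90 and 3.86 with quisinostat, and only GBP1 and GBP3 lie below -2 with mivebresib.

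Quisinostat and romidepsin, both given at 40 nM, were compared directly to see whether the HDAC inhibitors differed in size of effect. The libraries on which the members were picked are on neither side of this comparison, but they entered the shared estimate of the spread. With only the 4 HDAC inhibitor libraries fitted, 3 members passed as well. Of the 5 members, 3 were higher with quisinostat, against 21.0% of all tested genes called higher and 14.6% lower. Over all genes this split was 3167 higher and 2200 lower, and it was 4307 and 1298 without TMM factors and 3517 and 1839 with upper-quartile factors, while 3 members passed in each case. GBP2 differed most, with a log2 difference of 2.21 (standard error 0.178, edgeR adjusted p = 0.000112). GBP5 followed at 1.74 (standard error 0.341, edgeR adjusted p = 0.0053) and GBP3 at 0.54 (standard error 0.102, edgeR adjusted p = 0.00455). For GBP1 the difference of 0.33 had a 95% interval of -0.44 to 1.10 (edgeR adjusted p = 0.481), and for GBP4 the difference of 0.29 had an interval of -0.51 to 1.09 (edgeR adjusted p = 0.56). The calls of GBP2, GBP3 and GBP5 passed without each of the 8 libraries in turn, with adjusted p-values of at most 0.0484.

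Set beside the HDAC inhibitors, again as a description, the mivebresib libraries had lower levels of 4 members. GBP1 stood at least 14.1-fold below romidepsin and at least 17.7-fold below quisinostat. The log2 difference from romidepsin was -4.30 for GBP3, -2.69 for GBP2 and -2.60 for GBP5, and that from quisinostat was -4.84, -4.89 and -4.33. GBP4 differed by 0.51 and 0.22, with standard errors of 0.348 and 0.334.

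The make-up of the family differed between the groups. GBP1 and GBP3 were picked for being lower with mivebresib, so the mivebresib sum and shares follow in part from that choice. Summed over the 5 members, the level per length was 1.68 ± 0.169 CPM per kb in the control (SD, n = 2), 5.89 ± 0.318 with romidepsin, 12.2 ± 0.0326 with quisinostat and 0.563 ± 0.0989 with mivebresib. GBP3 made up 67.7% ± 2.36 of that sum in the control, 65.9% ± 3.82 with romidepsin and 46.2% ± 0.232 with quisinostat. Under mivebresib its share was 35.6% ± 11.1. The share of GBP2 was 7.68% ± 0.759 in the control, 14.5% ± 2.30 with romidepsin and 32.3% ± 0.629 with quisinostat. It was 22.8% ± 3.92 under mivebresib, where the level of GBP2 was 0.130 CPM per kb as in the control and those of GBP1 and GBP3 were lower. With quisinostat the order per length was GBP3 (5.63 ± 0.0132 CPM per kb), GBP2 (3.94 ± 0.0872), GBP5 (1.85 ± 0.0481), GBP1 (0.633 ± 0.00477) and GBP4 (0.127 ± 0.0115), and no neighbours in that order overlapped. With mivebresib GBP3 (0.195 ± 0.0274), GBP4 (0.148 ± 0.0317), GBP2 (0.130 ± 0.0447) and GBP5 (0.0899 ± 0.0499) came in this order above GBP1 at 0. Both GBP3 libraries were above both GBP4 libraries, though only by 0.176 to 0.170 CPM per kb in mivebresib replicate 2. GBP4 overlapped GBP2, and GBP2 overlapped GBP5. All members together had 48 and 61 counts in the mivebresib libraries, so this order and these shares carry large counting error.

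**Figure D3:**
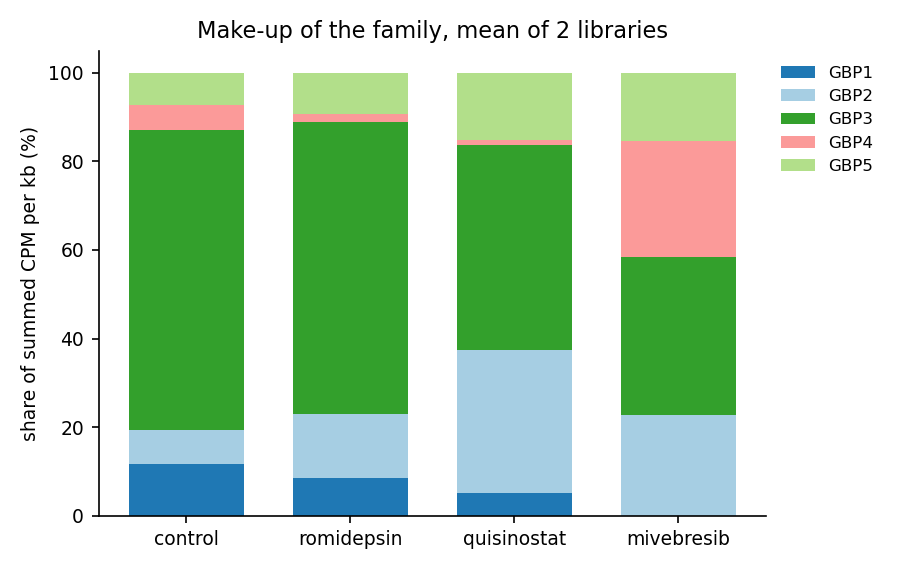
Share of each member in the summed CPM per kb of the 5 members, as the mean of 2 libraries per group, starting from 0%. GBP3 takes 67.7% in the control and 46.2% with quisinostat, where GBP2 takes 32.3%, and GBP1 is at 0% with mivebresib. The mivebresib shares follow in part from the choice of GBP1 and GBP3 for being lower with that drug.

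Across the 8 libraries, the members formed 2 pairs by the likeness of their log2 CPM. Pearson's r was 0.977 between GBP1 and GBP3 and 0.976 between GBP2 and GBP5. Between members of different pairs r was high as well, from 0.746 to 0.848, while the r of GBP4 with the others ran from -0.363 to 0.069. These 8 points are 4 groups of replicates, so r describes the pattern over the groups. They include the control and mivebresib libraries on which GBP1 and GBP3 were picked for being lower together, so the r of that pair follows in part from the choice. Over 12024 genes whose log2 CPM averaged 1 or more, the nearest to GBP1 was MSRB3, a methionine sulfoxide reductase (r = 0.9964), then RAB29 (0.9940) and DLG3 (0.9939). SIM1, TOM1L1 and MAT1A were nearest to GBP3, with r from 0.9975 to 0.9985. The nearest to GBP2 were OGDHL, the neural cell adhesion molecule NCAM1 and AFF2 (r from 0.9945 to 0.9966), and among the nearest to GBP5 were SLC8A2 (0.9908) and NFASC (0.9899). NCAM1 had 0.594 CPM in the control, 3.54 with romidepsin, 22.6 with quisinostat and 0.742 with mivebresib. GBP4 had no counterpart as close, with ZNF799 (0.9468), GUSBP1 (0.9447) and ANKDD1A (0.9383) nearest. None of these genes is in the lists of interferon genes examined here.

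The pathway that induces GBPs was examined through lists of its parts. Of the 21 interferon ligands in the table, 16 were at 0 counts in every library and 20 had at most 3 counts in any library. IFNG was among those at 0, and IFNB1 had 1 count in romidepsin replicate 1. No ligand was tested. Transcripts of the IFN-γ receptor were present: IFNGR1 stood at 41.4 ± 12.2 CPM (SD, n = 2) and IFNGR2 at 56.0 ± 13.1 in the control. Of the 8 tested receptor and kinase genes, 1 rose with romidepsin, 1 rose and 1 fell with quisinostat, and 2 rose and 2 fell with mivebresib. Across all tested genes the shares higher and lower were 15.2% and 15.8%, 28.0% and 25.1%, and 22.2% and 24.1% in that order. The shares of this list were below these with romidepsin and quisinostat and just above them with mivebresib. With mivebresib JAK1 rose (log2 fold change 0.82, edgeR adjusted p = 6.77e-05) and IFNGR2 fell (-1.16, edgeR adjusted p = 0.000585). IFNGR1 rose as well (0.68, edgeR adjusted p = 0.0131) and TYK2 fell (-0.25, edgeR adjusted p = 0.0386), though neither passed without mivebresib replicate 1 (0.0561 and 0.162) or replicate 2 (0.068 and 0.0956), and TYK2 passed without only 1 of the 8 libraries, control replicate 1. With quisinostat JAK2 rose (0.43, edgeR adjusted p = 0.00547) and TYK2 fell (-0.34, edgeR adjusted p = 0.00941). Those calls did not pass without quisinostat replicate 2 (JAK2, 0.0562) or replicate 1 (TYK2, 0.0907), and TYK2 did not pass without TMM factors (0.21) or with upper-quartile factors (0.0757). IFNAR2 rose with romidepsin (0.37, edgeR adjusted p = 0.0445), with adjusted p from 0.0624 to 0.202 without any single library other than control replicate 2.

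IRF1, which binds the ISRE, stood at 11.0 ± 0.144 CPM in the control (SD, n = 2), 11.3 ± 0.00255 with romidepsin, 10.5 ± 1.66 with quisinostat and 13.0 ± 1.33 under mivebresib. It passed in none of these comparisons (edgeR adjusted p from 0.159 to 0.839). Of the 15 transcription factors tested, 1 rose and 5 fell with romidepsin, 3 rose and 7 fell with quisinostat, and 3 rose and 3 fell with mivebresib. For all tested genes the shares higher and lower were 15.2% and 15.8%, 28.0% and 25.1%, and 22.2% and 24.1% in that order. The shares of factors that fell with romidepsin and with quisinostat were above these, and the other shares of factors were below them. IRF9, a DNA-binding factor of the type I interferon response, fell with quisinostat (log2 fold change -1.02, edgeR adjusted p = 0.00103). It fell with romidepsin (-0.76, edgeR adjusted p = 0.00901), though not without romidepsin replicate 1 (0.0549) or replicate 2 (0.0615). STAT2 fell with mivebresib (-0.57, edgeR adjusted p = 0.00143), and NFKB1 fell with quisinostat (-0.71, edgeR adjusted p = 0.000105) and mivebresib (-0.75, edgeR adjusted p = 0.0001). IRF7, an amplifier of interferon production, rose with mivebresib (1.41, edgeR adjusted p = 0.00107). IRF3 fell with romidepsin (-0.55, edgeR adjusted p = 0.00231) and mivebresib (-0.43, edgeR adjusted p = 0.0041). STAT3 (-0.59, edgeR adjusted p = 0.00045) and IRF2 (-0.45, edgeR adjusted p = 0.00166) fell with quisinostat, and IRF5 rose with it (0.92, edgeR adjusted p = 0.000912). IRF8 had 0 and 1 counts in the control against 7 and 5 with romidepsin, 15 and 10 with quisinostat and 9 and 6 with mivebresib. It passed with quisinostat (edgeR adjusted p = 0.00345). Only the quisinostat libraries reached 10 counts and lifted IRF8 over the filter on low counts, so that call is to be read as a description. The other calls of this list could each be undone by leaving out 1 library: with romidepsin IRF8, NFKB1, RELA and RELB (edgeR adjusted p up to 0.161, 0.134, 0.302 and 0.0886), with quisinostat IRF7, BATF2, RELA and RELB (up to 0.0649, 0.0629, 0.0561 and 0.0712), and with mivebresib IRF5 and IRF8 (up to 0.128 and 0.0665).

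Of the 6 tested inhibitors of the pathway, 3 rose and 2 fell with mivebresib, 1 rose and 1 fell with romidepsin, and 3 fell with quisinostat. Over all tested genes, the shares higher and lower were 22.2% and 24.1%, 15.2% and 15.8%, and 28.0% and 25.1% in that order. SOCS1, which blocks the JAK kinases, had 13 and 5 counts in the control and 47 and 53 with mivebresib (log2 fold change 2.47, edgeR adjusted p = 0.00675). SOCS3 fell with mivebresib (-1.74, edgeR adjusted p = 1.97e-05). PTPN2, a phosphatase that acts on JAK1, fell with romidepsin (-0.59, edgeR adjusted p = 0.00408) and quisinostat (-1.01, edgeR adjusted p = 0.00011). PIAS1 rose with mivebresib (0.42, edgeR adjusted p = 0.00407). PTPN1 fell with quisinostat (-0.60, edgeR adjusted p = 0.000299). The remaining calls, of SOCS3 with romidepsin and quisinostat and of PTPN2 and USP18 with mivebresib, did not pass without some single library (edgeR adjusted p up to 0.113, 0.074, 0.11 and 0.0671).

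Other interferon-induced genes fell with mivebresib far more often than they rose. Of 66 tested genes, 37 that IFN-γ induces and 29 of the type I interferon response, 39 fell (59.1%) and 3 rose (4.55%), against 24.1% of all tested genes called lower and 22.2% higher. The median log2 fold change was -0.46 for the IFN-γ genes, of which 22 fell, and -0.92 for the type I genes, of which 17 fell, with 0.0067 over all tested genes. The count that fell was 20 without mivebresib replicate 2, and 5 rose without control replicate 1 and again without control replicate 2. TRIM22 fell from 24.0 ± 1.18 to 1.38 ± 0.137 CPM (SD, n = 2; log2 fold change -4.12, edgeR adjusted p = 9.97e-07). CASP1, the protease of the inflammasome, fell from 2.01 ± 0.109 to 0.363 ± 0.00431 CPM (-2.46, edgeR adjusted p = 8.52e-05), and the immunoproteasome subunit PSMB8 from 15.5 ± 2.06 to 3.79 ± 0.789 (-2.03, edgeR adjusted p = 4.34e-05). OAS2 fell as well (-2.43, edgeR adjusted p = 0.00189). OAS1 (-1.60, edgeR adjusted p = 0.0189) and CMPK2 (-1.60, edgeR adjusted p = 0.0294) fell, and SAMHD1 rose (0.36, edgeR adjusted p = 0.01), but 1 library could undo each call, with adjusted p up to 0.13, 0.205 and 0.0667. Of the chemokines, CXCL11 had 22 and 12 counts in the control and 0 in both mivebresib libraries, at least 5.60-fold lower by the same floor. IFI30, a lysosomal thiol reductase, rose from 5.68 ± 0.174 to 27.1 ± 1.14 CPM (2.25, edgeR adjusted p = 2.31e-06). IFI6 rose too (1.00, edgeR adjusted p = 0.00707). The summed level of the type I genes was 1030 CPM in control replicate 1 and 747 in replicate 2, and 936 and 631 in the mivebresib libraries, so the groups overlapped on that sum. For the IFN-γ genes the sums were 1580 and 1640 CPM in the control and 1340 and 1150 with mivebresib.

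With the HDAC inhibitors the 66 genes had calls in both directions, while GBP1, GBP2, GBP3 and GBP5 rose. With romidepsin 12 of the 66 genes rose (18.2%) and 4 fell (6.06%), and with quisinostat 14 rose and 14 fell (21.2% each). Over all tested genes 15.2% rose and 15.8% fell with romidepsin, and 28.0% rose and 25.1% fell with quisinostat. Of the type I genes, 6 rose and 0 fell with romidepsin (median 0.176), and 5 rose and 4 fell with quisinostat (median -0.165). Of the IFN-γ genes, 6 rose and 4 fell with romidepsin (median 0.09), and 9 rose and 10 fell with quisinostat (median 0.0038). The median log2 fold change of the 66 was 0.099 and -0.0019, beside -0.012 and -0.0036 over all tested genes. The romidepsin count that rose was 6 without romidepsin replicate 1, the count that fell was 9 without control replicate 2 and 1 without either romidepsin library, and with quisinostat 22 fell without control replicate 2. CD274, which encodes PD-L1, had 19 and 17 counts in the control, 186 and 121 with romidepsin (log2 fold change 3.02, edgeR adjusted p = 0.000171) and 189 and 169 with quisinostat (3.13, edgeR adjusted p = 3.32e-05). Its 13 and 13 counts with mivebresib did not pass (-0.45, edgeR adjusted p = 0.368). CASP1 rose with romidepsin (1.39, edgeR adjusted p = 0.000576) and quisinostat (1.06, edgeR adjusted p = 0.000834), as did SAMD9 (0.99, edgeR adjusted p = 0.00406, and 1.45, edgeR adjusted p = 0.000217). UBE2L6, the conjugating enzyme of ISG15, rose with quisinostat (1.97, edgeR adjusted p = 0.000581). TRIM22 fell with both, by 0.57 (edgeR adjusted p = 0.00515) and 1.65 (edgeR adjusted p = 1.04e-05) on the log2 scale. IFI30 rose with quisinostat (1.94, edgeR adjusted p = 3.16e-06) and romidepsin (1.04, edgeR adjusted p = 0.000269), SAMD9L with romidepsin (0.78, edgeR adjusted p = 0.00488) and IFI44 with quisinostat (1.14, edgeR adjusted p = 0.00367). With quisinostat IFIT3 fell (-1.05, edgeR adjusted p = 0.000375), as did IFIT2 (-0.66, edgeR adjusted p = 0.00554), PSMB10 (edgeR adjusted p = 0.000582) and APOL6 (edgeR adjusted p = 0.000341). Calls that 1 library could undo were those of UBE2L6 (up to 0.111 without a library), APOL6 (0.079), PSMB10 (0.111) and HERC5 (0.273) with romidepsin and of HERC5 (0.0947) and IFITM3 (0.155) with quisinostat, each number an edgeR adjusted p.

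**Figure D4:**
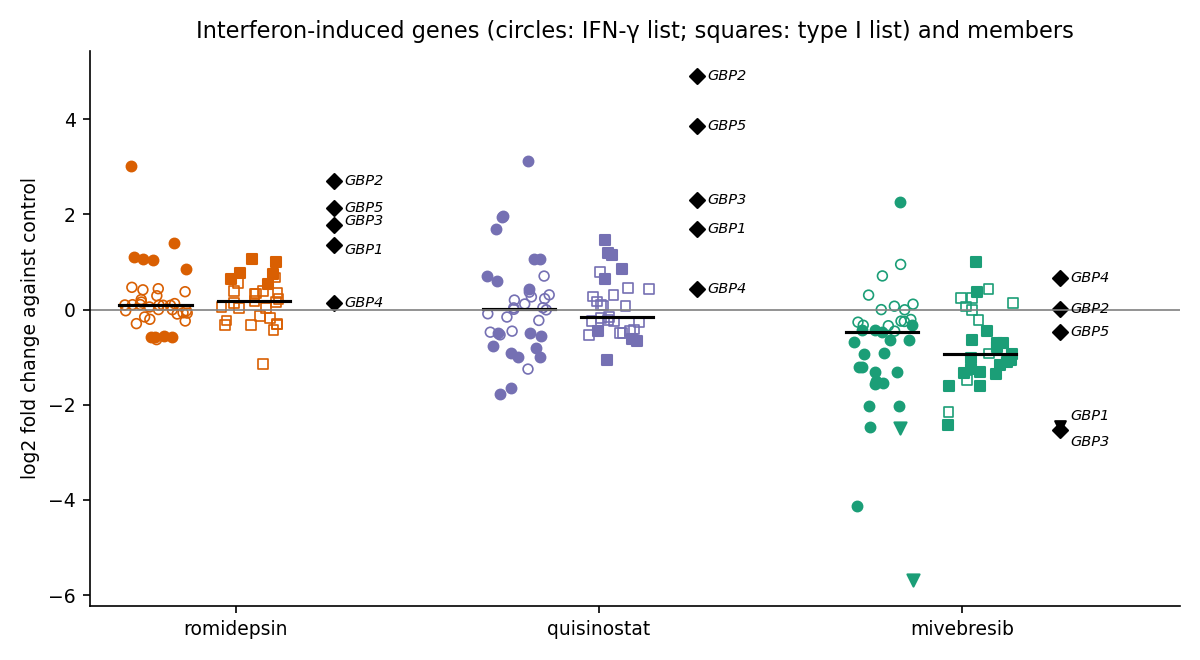
Log2 fold change against the control for 37 IFN-γ-induced genes (circles) and 29 type I interferon genes (squares), filled where the adjusted p is below 0.05, with black bars at the list medians and diamonds for the 5 members. Triangles mark genes with at most 1 count per mivebresib library, GBP1 and CXCL11 at their bounds and CXCL10 at the ratio of its counts, and the members' mivebresib values are those they were picked on. The list medians are -0.46 and -0.92 with mivebresib and run from -0.165 to 0.176 with the HDAC inhibitors.

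Enzymes that prenylate GBPs, and partners with which GBPs act in inflammasomes or on furin, moved in both directions. The list shares CASP1, CASP4 and APOL3 with the IFN-γ genes. Of its 14 tested genes, 1 rose and 2 fell with romidepsin, 3 rose and 3 fell with quisinostat, and 2 rose and 4 fell with mivebresib. The shares higher and lower were 7.14% and 14.3%, 21.4% and 21.4%, and 14.3% and 28.6%. For all tested genes these shares were 15.2% and 15.8%, 28.0% and 25.1%, and 22.2% and 24.1%. FNTB, the beta subunit of the farnesyltransferase that modifies GBP1, fell from 34.1 ± 1.30 CPM (SD, n = 2) to 20.2 ± 0.258 with romidepsin (log2 fold change -0.75, edgeR adjusted p = 0.000945), 15.1 ± 0.983 with quisinostat (-1.18, edgeR adjusted p = 3.11e-05) and 12.6 ± 1.34 with mivebresib (-1.43, edgeR adjusted p = 1.68e-05). FNTA, the alpha subunit that farnesyltransferase shares with GGTase I, the enzyme that attaches the longer geranylgeranyl lipid, fell with quisinostat (-0.48, edgeR adjusted p = 0.00168) and rose with mivebresib (0.40, edgeR adjusted p = 0.00495). PGGT1B, the beta subunit of GGTase I, which modifies GBP2 and GBP5, did not pass with any drug (log2 fold change -0.18, -0.11 and -0.18, edgeR adjusted p from 0.0644 to 0.222). NLRP1, an inflammasome sensor, rose with quisinostat (1.42, edgeR adjusted p = 3.98e-05) and mivebresib (1.23, edgeR adjusted p = 0.000108). CASP4, which senses bacterial lipopolysaccharide, rose with quisinostat (0.43, edgeR adjusted p = 0.00681) and fell with mivebresib (-0.42, edgeR adjusted p = 0.00968), but not without quisinostat replicate 1 (0.0528) or mivebresib replicate 2 (0.0682). The fall of FNTA with romidepsin (-0.37, edgeR adjusted p = 0.0132) was likewise lost without romidepsin replicate 1 (0.116) or 2 (0.0508). GSDMD, the pore-forming protein cleaved by caspases, fell with quisinostat (-0.43, edgeR adjusted p = 0.00147). CASP5 was at 0 counts in every library.

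Other large GTPases related to the GBPs, the dynamins, OPA1, mitofusins, atlastins, MX1 and MX2, moved in both directions. MX1 and MX2 are also among the type I interferon genes above. Of 12 tested, 3 fell with romidepsin, 2 rose and 2 fell with quisinostat, and 2 rose and 3 fell with mivebresib. The shares of all tested genes higher and lower were 15.2% and 15.8%, 28.0% and 25.1%, and 22.2% and 24.1% in that order. The share of these relatives that fell was above that of all genes with romidepsin and near it with mivebresib. Their other shares were below those of all genes. DNM3 rose with quisinostat (log2 fold change 0.99, edgeR adjusted p = 0.000182) and fell with mivebresib (-1.92, edgeR adjusted p = 1.94e-05), while DNM1 rose with quisinostat (2.73, edgeR adjusted p = 0.000104). ATL1, an atlastin of the endoplasmic reticulum, fell with mivebresib (-0.65, edgeR adjusted p = 0.00142), and ATL3 fell with quisinostat (-0.85, edgeR adjusted p = 0.000246). DNM2 fell with quisinostat (-0.41, edgeR adjusted p = 0.00179) and rose with mivebresib (0.35, edgeR adjusted p = 0.00471). The romidepsin calls of ATL3, MFN2 and DNM2 and the mivebresib calls of MFN2 and DNM1L were each lost without some single library (edgeR adjusted p up to 0.159, 0.151, 0.184, 0.0891 and 0.0519).

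The genes around the cluster were examined to see whether the changes extended beyond it. Outside the GBPs, 9 tested genes lay within 1 Mb of the cluster, 8 of them protein-coding. Of these 9, 2 rose with romidepsin, 1 rose and 2 fell with quisinostat, and 4 rose and 1 fell with mivebresib. Among all tested genes, 15.2% rose and 15.8% fell with romidepsin, 28.0% and 25.1% with quisinostat, and 22.2% and 24.1% with mivebresib. The log2 fold changes of the 9 ran from -0.22 to 1.16 with romidepsin and from -0.66 to 1.25 with quisinostat. These were below those of GBP1, GBP2, GBP3 and GBP5. LRRC8B, a subunit of the volume-regulated anion channel 252 kb beyond the cluster, rose with romidepsin (0.96, edgeR adjusted p = 0.000258), quisinostat (1.08, edgeR adjusted p = 3.63e-05) and mivebresib (0.67, edgeR adjusted p = 0.000602). Its relative LRRC8D rose with romidepsin (0.50, edgeR adjusted p = 0.00393), and LRRC8C did not pass with any drug (log2 fold change 0.56, 0.56 and -0.087). RBMXL1, 13.7 kb from GBP3, fell with mivebresib (-1.12, edgeR adjusted p = 0.000159), and it overlaps KYAT3 on the same strand, so reads may be shared between them. ZNF326, at the far end, fell with quisinostat (-0.66, edgeR adjusted p = 0.000184). The mivebresib calls of GTF2B (0.30, edgeR adjusted p = 0.0124) and KYAT3 (0.29, edgeR adjusted p = 0.0323) and the quisinostat call of PKN2 (-0.33, edgeR adjusted p = 0.0313) were lost without some single library, with adjusted p up to 0.0582, 0.125 and 0.169. The other gene that rose with mivebresib was the processed pseudogene GEMIN8P4, with 6 and 5 counts in the control and 43 and 22 with mivebresib.

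**Figure D5:**
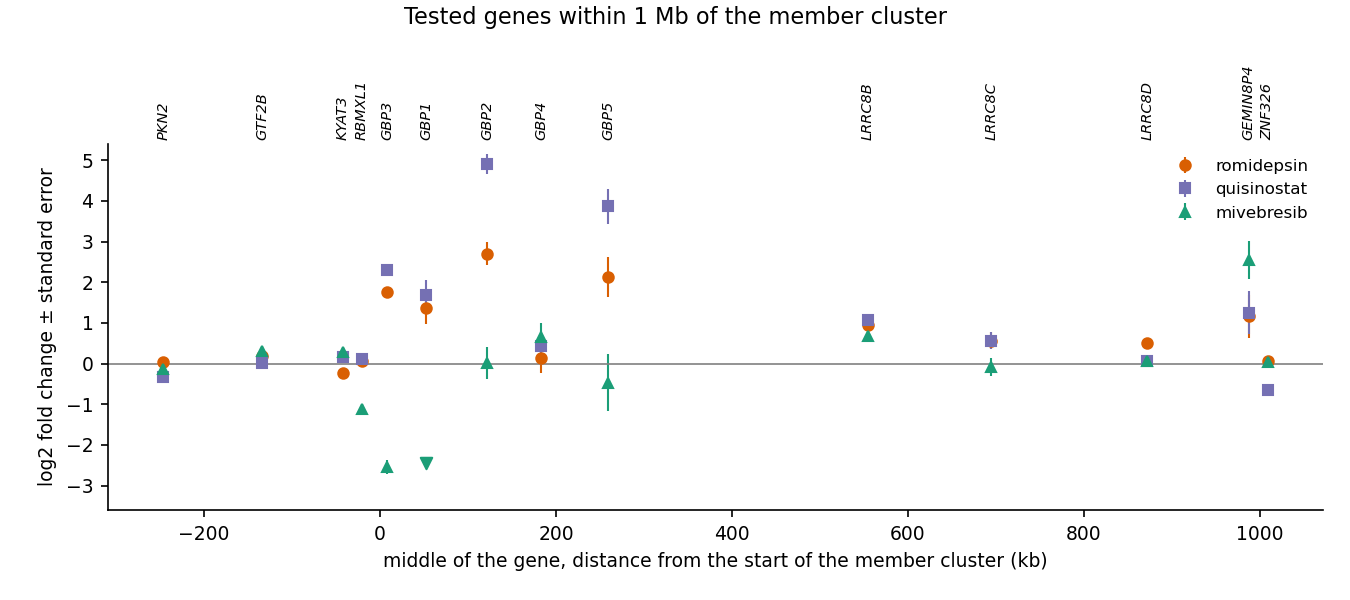
Log2 fold change against the control, with bars of 1 standard error, for tested genes within 1 Mb of the cluster, placed by the distance in kb of the middle of each gene from the start of the cluster. The downward triangle is the bound for GBP1 with mivebresib. With quisinostat GBP2 stands at 4.90 and GBP5 at 3.86, while GBP4 between them is at 0.43.

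Markers of other cell types were low, and some moved with the HDAC inhibitors. The summed level of the 6 endothelial markers, cells in which GBP1 is well known, was 0.638 and 0.986 CPM in the control, 3.71 and 3.13 with romidepsin, 5.16 and 5.86 with quisinostat and 1.17 and 1.47 with mivebresib. KDR made up most of it, with 12 and 17 counts in the control and 142 and 159 with quisinostat (log2 fold change 3.18, edgeR adjusted p = 2.12e-05). CDH5, which defines endothelial cells, was at 0 counts in every library, and CLDN5 had at most 2. The 6 fibroblast markers summed to 1.98 and 2.48 CPM in the control and 11.0 and 8.44 with quisinostat, mostly COL1A1, and LUM and THY1 had at most 3 counts in any library. The 10 leukocyte markers summed to 61.4 to 83.4 CPM in every group, nearly all of it CD68. Of 7 tested melanocytic markers, 4 fell with mivebresib, 3 with quisinostat and 1 with romidepsin, beside 24.1%, 25.1% and 15.8% of all tested genes. The part of these shifts in the levels of the members was not tested.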

How the data were processed

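RNA from 8 cultures of MP38 cells, 2 per group, was sequenced by BGI as paired-end reads of 150 bases. The authors deposited gene counts by symbol, used here, and 2 tables made from them (log2 CPM and quantile-normalized values), which were not used because a count test needs the raw counts. The submitters' processing notes name hg38, and the aligner and annotation are not given in the sources used here. Counts were fitted with edgeR 4.0.16 (R 4.3.3) by quasi-likelihood over all 8 libraries in 1 model, with TMM factors, a low-count filter (filterByExpr, minimum count 10) and Benjamini-Hochberg adjustment. Intervals on folds of low counts are exact conditional 95% intervals. Totals of 28483235 to 29359024 counts per library make 3 counts worth 0.095 to 0.11 CPM. Alternatives were DESeq2 1.42.0, limma-voom 3.58.1, other scalings, no filter, a replicate block, only the 4 libraries compared, a log2 fold change beyond 1.5, and leaving out each library, in which case the lone library is assumed to vary like the other groups. The scripts were tested on simulated data. Positions are from GENCODE 29 and promoters from RefSeq (GRCh38.p14). Genes named were every passing receptor, kinase, factor and inhibitor, the 3 largest rises and falls per drug in the other lists (average log2 CPM of at least 1), IRF1, FNTA, FNTB and PGGT1B always, coding genes within 1 Mb, and the 3 genes most alike each member. Markers and counts of a few reads were named after their values were seen. Some genes that this rule names are not reported here. The members and lists were chosen with earlier results of these data known.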

Additional observations from a re-analysis of the deposited data

How the results depend on the processing

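With quisinostat 4 members passed under every alternative that kept GBP1 and GBP3 apart, and 3 were higher than with romidepsin, or 2 with a log2 fold change beyond 1.5. With romidepsin the count was 3 with that threshold or with only the 4 libraries compared, and 2 to 4 when single libraries were left out. With GBP1 and GBP3 summed, an alternative chosen after seeing the data, 3 of 4 passed in each comparison. GBP2 and GBP5 passed the filter on low counts only through the HDAC inhibitor libraries. Their part in the counts against the control is therefore a description. With mivebresib the log2 fold change of GBP3 ran from -2.69 to -2.40 and the log2 bound of GBP1 from -2.55 to -2.33 without single libraries, and the sum of GBP1 and GBP3 stood at -2.76. The untested values of GBP2 (-0.385 to 0.313) and GBP5 (-1.17 to 0.744) took either sign.

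Of the 66 interferon-induced genes, leaving out single libraries gave 6 to 18 higher and 1 to 9 lower with romidepsin, 11 to 19 and 10 to 22 with quisinostat, and 2 to 5 and 20 to 40 with mivebresib. With a log2 fold change beyond 1.5 as well, 1 was higher and 0 lower with romidepsin, 4 and 2 with quisinostat, and 1 and 12 with mivebresib. With only the 4 libraries compared, 2 were lower with romidepsin.

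Among tested values, directions turned only for those that did not pass. Without romidepsin replicate 1 or 2, the quisinostat value relative to romidepsin was 0.886 or -0.0816 for GBP1 and 0.68 or -0.0266 for GBP4, and the value of romidepsin relative to the control was -0.253 or 0.453 for GBP4. GBP4 with romidepsin was -0.00524 without control replicate 2. IRF1 with quisinostat was 0.131 without TMM factors, 0.0605 with upper-quartile factors, and -0.232 or 0.0732 without quisinostat replicate 1 or 2. PGGT1B with quisinostat was 0.0905 and 0.0203 under the same other scalings. The cause was not tested.

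No consistent pairing by replicate number was seen, as the deviations of same-numbered libraries correlated from -0.162 to 0.158 between groups. The labels give only a sample number, so shared handling of same-numbered wells was not tested. With a replicate block, 4, 4 and 3 members passed as before, and 41 interferon-induced genes were lower and 3 higher with mivebresib, 13 higher and 6 lower with romidepsin, and 15 each with quisinostat. Among the named calls it undid those of HERC5 (adjusted p = 0.0538) and RELA (0.061) with romidepsin. Counts of 3 to 18 per library limit GBP1, GBP2, GBP4 and GBP5 in the control.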
